A study of Homo sapiens with 2 samples.

Results

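The 37 integrin and laminin genes examined here comprise 26 genes of integrin subunits and 11 of laminin chains. They were taken by symbol from a list, out of 19974 protein-coding RefSeq genes on chromosomes 1 to 22 and X. The list was chosen with earlier results of these data known. Chromatin of 786-O, an established line from a human renal carcinoma that lacks functional VHL, had been precipitated with an antibody against DEK and sequenced. Both samples carry a negative control label and a WT genotype, the file description adds Cas9, and no further agent is named, so they form 1 group of 2 replicates. It is not stated whether the control is one of cells or of precipitation, and the text reads both samples as control cells with a DEK antibody. Separate cultures are not named either, so differences between the replicates may be technical only. DEK-edited cells and input chromatin were not analysed here. The authors' peak lists held 19128 peaks in replicate 1 and 24580 in replicate 2. Peaks of both replicates that overlapped by at least 1 bp formed 12590 shared regions, and a region was assigned to a gene when it overlapped the gene or the 3 kb on either side. Peak lists carry no expression values, so the identity of the line was not checked against marker genes, and an assigned region says nothing about the activity of its gene.

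Integrins are cell surface receptors made of an alpha and a beta subunit that link the matrix or other cells to the actin cytoskeleton, and the pairing of subunits sets the ligand. Laminins are trimers of an alpha, a beta and a gamma chain that form the sheet of the basement membrane, on which tubule epithelium of the kidney rests and to which several integrins bind. DEK is an abundant nuclear protein that binds DNA and histones and has histone chaperone activity. With a single group, no comparison over samples exists and no test between genes was run. Counts are therefore set beside the share of all protein-coding genes that meets the same criterion. Because the lists were not chosen blind to these data, a count above that share is a description only.

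At least 1 shared region lay at 17 of the 37 genes (45.9%), against 26.8% of all protein-coding genes. The regions were concentrated in few genes: ITGB3 had 7, ITGB5 and LAMA3 had 5 each, and ITGA3, ITGB2, LAMA5 and LAMC1 had 3 each, while 20 genes had none. At least 2 regions lay at 12 genes (background 9.05%), at least 3 at 7 genes (4.11%) and at least 5 at 3 genes (1.26%). In all, 44 shared regions were assigned, 38 with their summit inside the gene and 6 with it in a flank. This came to 1.06 regions per 100 kb of gene and flank (exact 95% Poisson interval 0.773 to 1.43, which covers counting error only), against 0.576 over all protein-coding genes. Over all protein-coding genes this density fell with gene length, from 1.06 under 25 kb to 0.301 over 250 kb, and it is not adjusted for length here. Median length was 79.4 kb for the 37 genes and 24.2 kb over all protein-coding genes. Replicate 1 had a peak at 21 of the genes, against a background of 35.9%, and replicate 2 at 26, against 41.5%. A peak of either replicate lay at 27 genes, against 47.4%. The 10 genes without any were ITGA1, ITGA4, ITGA8, ITGA9, ITGA11, ITGA2B, ITGAD, ITGAX, LAMA2 and LAMB2.

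**Figure D1:**
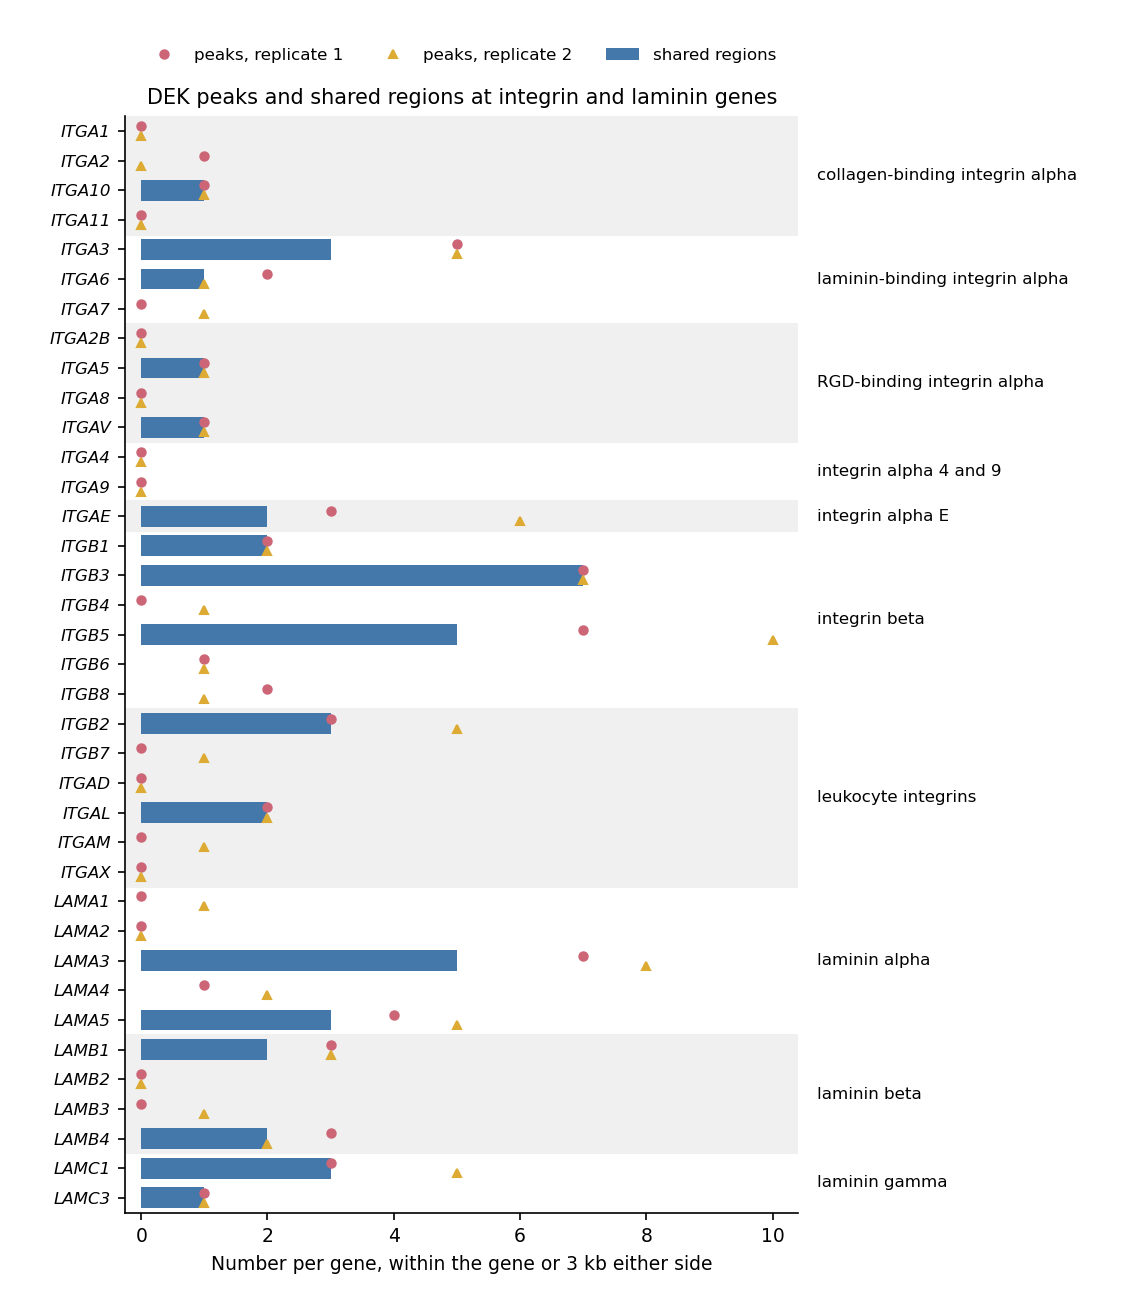
Number of DEK peaks in replicate 1 (circles) and replicate 2 (triangles) and of shared regions (bars) within each gene or 3 kb either side, on a linear axis, with genes grouped by the role of their product. ITGB3, ITGB5 and LAMA3 have the longest bars, and 20 of the 37 genes have no bar.

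Gene length did not order these counts. Across all protein-coding genes the share with a shared region rose from 17.5% under 25 kb to 51.6% over 250 kb. Of the integrin and laminin genes of 50 to 100 kb, 9 of 12 had a region (75%, background 35.2%), but of those of 100 to 250 kb only 3 of 10 had (30%, background 44.4%). From the shares of genes of the same length class, 13.05 of the 37 genes would have a region, and 17 had. LAMA2, which encodes the alpha chain of muscle laminin, spans 633 kb on chromosome 6 and had no peak in either replicate, and neither did ITGA9, which spans 371 kb on chromosome 3. Of all protein-coding genes over 250 kb, 24.6% likewise had no peak in either. ITGB3 is 59.9 kb long and had the most regions. The Spearman coefficient between length and the number of regions was 0.016 over the 37 genes, given as a description.

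**Figure D2:**
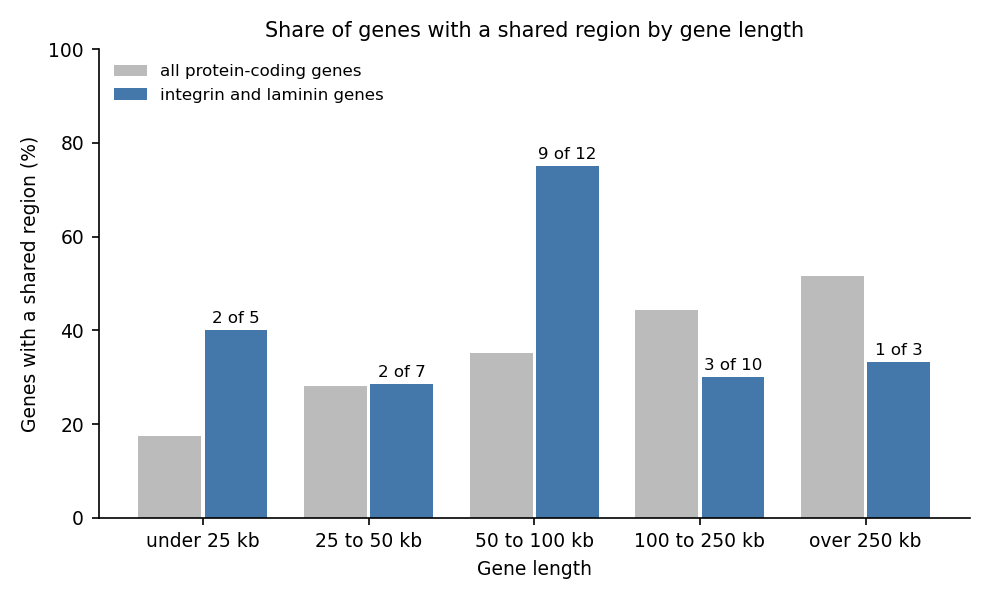
Percent of genes with at least 1 shared region, by gene length, for all protein-coding genes (grey) and for the integrin and laminin genes (blue, with counts above the bars). The grey bars rise with length from 17.5% to 51.6%, and the blue bar is highest at 50 to 100 kb with 9 of 12 genes.

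Among the integrin beta genes outside the leukocyte list, ITGB3, ITGB5 and ITGB1 held 14 shared regions and ITGB4, ITGB6 and ITGB8 held none. ITGB3 encodes the beta chain of the platelet fibrinogen receptor and of the vitronectin receptor. Its 7 regions on chromosome 17 gave 10.6 per 100 kb, against 1.15 within 1 Mb on either side, and only 109 protein-coding genes (0.546%) had 7 or more. The strongest, chr17:47257050-47258254, was 1205 bp wide and lay 3.90 kb above the lower annotated end, with a fold enrichment of 4.74 in replicate 1 and 5.29 in replicate 2 (5.02 ± 0.389, SD, n = 2). The replicates were further apart at chr17:47265826-47266409, with 2.55 in replicate 1 and 3.84 in replicate 2. The other 5 regions had mean fold enrichments from 2.69 to 4.19, and 4 regions in all lay within 1 kb of a long non-coding RNA gene, LOC107985029 or EFCAB13-DT. The authors' −log10 q was 12.7 and 17.1 at the strongest region, but not all calls were strong. It was 2.71 and 2.75 at chr17:47280399-47280983, and 3.80 and 1.71 at chr17:47315702-47315957, which lay in a flank. Both replicates had exactly 7 peaks at this gene, and each of them was matched.

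ITGB5, the beta chain that pairs with the alpha V subunit to bind vitronectin, had 5 shared regions spread along 139 kb of chromosome 3, and replicate 1 had 7 peaks there and replicate 2 had 10. Going from the 5′ end, at the upper coordinate, their summits lay at 22.6, 40.7, 55.8, 88.5 and 110 kb. The highest-ranked, chr3:124845409-124845804, had a fold enrichment of 4.70 and 4.52 (4.61 ± 0.127, SD, n = 2), and the widest, chr3:124878175-124879238, measured 1064 bp and had 4.23 and 4.36. None lay within 1 kb of an annotated end of ITGB5, and that at 110 kb lay within 1 kb of the long non-coding RNA gene LOC124909422. ITGB1, the most widely used beta chain, had 2 regions on chromosome 10, both weak in fold. Region chr10:32938069-32938561 had 2.99 and 2.98 in the replicates, and chr10:32944275-32944846, within 1 kb of the pseudogene AK3P5, had a mean of 3.02 ± 0.0236 (SD, n = 2). Their mean percentiles of fold enrichment among all shared regions were 5.75 and 6.38, so ITGB1 sat near the bottom of the ranking although the replicates differed little. ITGB6 and ITGB8 had peaks in both replicates that did not overlap, and ITGB4, the hemidesmosomal beta chain, had a single peak of replicate 2.

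**Figure D3:**
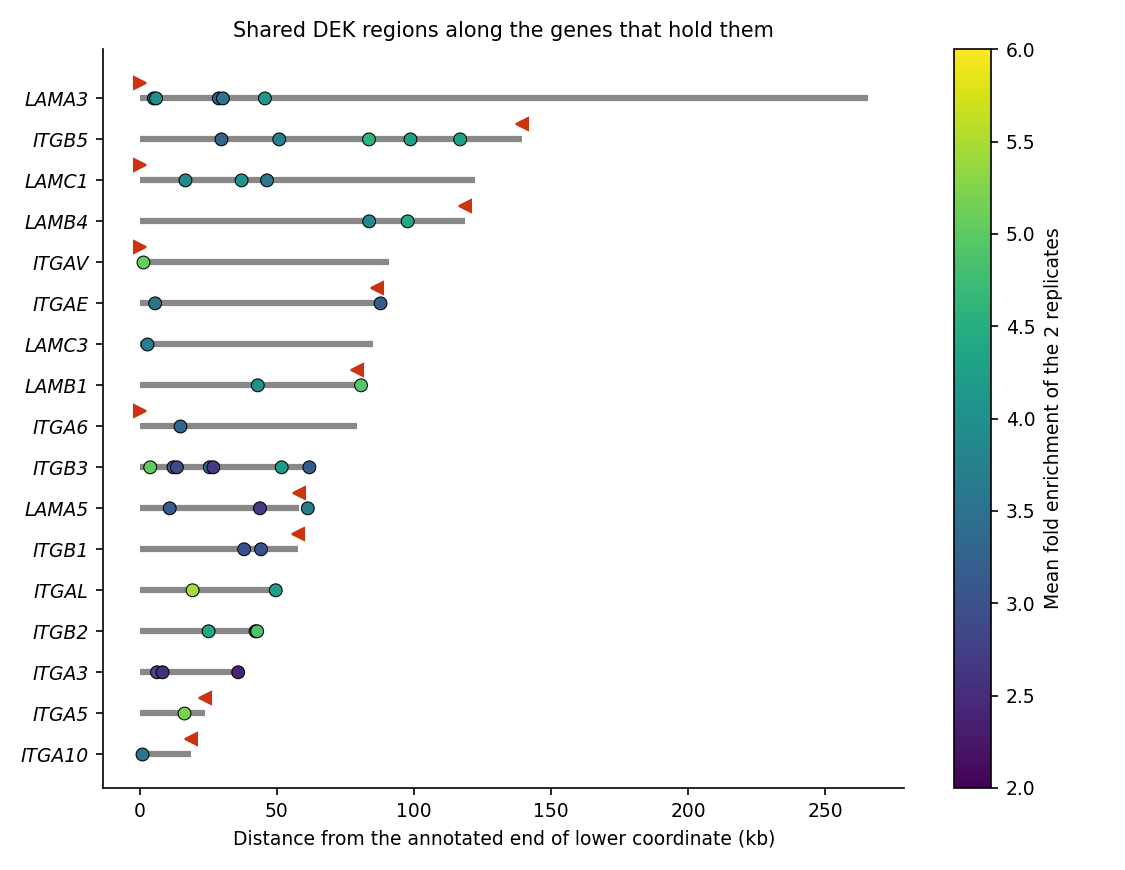
Position of each shared region (circle, coloured by mean fold enrichment) along the 17 genes that hold any, in kb from the annotated end of lower coordinate, with the gene as a grey bar. Red arrowheads above a bar mark the 5′ end where the promoter table gives the strand. The regions of LAMA3 lie within 45.7 kb of its 5′ end, while those of ITGB5 spread along the gene.

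The alpha subunit genes held fewer regions. Of the RGD-binding subunits, which recognise a short Arg-Gly-Asp motif in fibronectin and vitronectin, ITGA5 and ITGAV had 1 region each and ITGA8 and ITGA2B had none. ITGA5, the fibronectin receptor, had chr12:54411333-54411710, 7.74 kb inside the gene from its 5′ end, with a fold enrichment of 5.20 in both replicates and a mean percentile of 85.2. This region lay within 1 kb of the long non-coding RNA gene GPR84-AS1. ITGAV, the alpha chain that partners several beta chains, had chr2:186590948-186591745 with 5.02 and 5.10 (5.06 ± 0.0511, SD, n = 2). The summit of the ITGAV region lay 1.20 kb inside the gene from the start of transcription. The shared regions around ITGAV were sparse, at 0.1 per 100 kb within 1 Mb on either side. With a mean percentile of 82.4 it ranked close to ITGA5.

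Laminin-binding alpha subunits differed from these in rank. ITGA3, the partner of ITGB1 in epithelial adhesion to laminin, had 3 regions on chromosome 17, 2 inside the gene of 34.4 kb and the third with its summit 1.61 kb beyond the gene's upper end, or 7.43 per 100 kb of gene and flanks against 1.8 in the surrounding sequence. The fold enrichments were 2.88 and 2.78 at chr17:50062289-50062746, 2.57 and 2.50 at chr17:50064326-50064795, and 2.25 and 2.57 at chr17:50091895-50092467, within 1 kb of the long non-coding RNA gene LOC124904024. Their mean percentiles ran from 0.568 to 3.20, a range that held only 2 other regions of the 37 genes, 1 of LAMA5 and 1 of ITGB3. ITGA6, which pairs with ITGB1 or ITGB4, had 1 region, chr2:172442024-172442436, with 3.20 and 3.39, 14.9 kb inside the gene from the 5′ end. ITGA7, known from muscle, had only a peak of replicate 2. Among the collagen-binding subunits, ITGA10 had chr1:145892036-145892391 with 3.64 and 3.51 and its summit 1.01 kb inside the 3′ end. ITGA2 had a peak of replicate 1 only, and ITGA1 and ITGA11 had none. ITGA4 and ITGA9, which share ligands such as VCAM1 and osteopontin, had no peak in either replicate. ITGAE, the alpha chain of intraepithelial lymphocytes, had 2 shared regions among 3 peaks of replicate 1 and 6 of replicate 2. Region chr17:3802343-3802729, lay 1.33 kb outside the 5′ end and within 1 kb of NCBP3, and region chr17:3720059-3720582 lay within 1 kb of P2RX5, so neither can be assigned to ITGAE alone.

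Leukocyte integrins formed the comparison set: ITGAL, ITGAM, ITGAX and ITGAD encode alpha chains that pair with ITGB2 on white blood cells, and ITGB7 pairs with ITGA4 or ITGAE on lymphocytes. A shared region lay at 2 of these 6 genes (33.3%) and at 15 of the other 31 (48.4%), and the shares that genes of the same length classes would give are 28.7% and 36.5%. Per 100 kb the order was the opposite, 1.79 regions at the leukocyte genes (exact 95% Poisson interval 0.582 to 4.18) and 1.01 at the others (0.719 to 1.38), and the intervals overlap. The leukocyte genes were shorter, with a median length of 38 kb against 86 kb. Shorter genes had more regions per 100 kb over all protein-coding genes too, 0.927 at 25 to 50 kb and 0.759 at 50 to 100 kb. Whether the groups differ was not tested.

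The regions at the leukocyte genes belonged to ITGAL and ITGB2, which together encode the receptor LFA-1. ITGAL had the highest-ranked region of all 37 genes, chr16:30491977-30492222, with 5.41 and 5.50 (5.46 ± 0.0686, SD, n = 2, mean percentile 88.7), 19.3 kb above its lower annotated end. Its other region, chr16:30522240-30522660, lay 0.768 kb below the upper end with 4.35 and 4.12. ITGB2 had 3 regions on chromosome 21, of which 2 lay at its upper end, within 1 kb of the long non-coding RNA gene ITGB2-AS1. Region chr21:44928688-44929301 spanned that end and had 4.93 and 4.84 (4.88 ± 0.065, SD, n = 2), and chr21:44928002-44928451 had 3.03 and 3.54. The third, chr21:44911062-44911366, had 4.62 and 4.17 and lay within 1 kb of the long non-coding RNA gene LOC107987303. The neighbouring genes ITGAM, ITGAX and ITGAD on chromosome 16 had no shared region. ITGAM had a peak of replicate 2 alone, chr16:31265384-31265599, with a fold enrichment of 6.10 that ranked at percentile 96.3 of that list. ITGB7 had a peak of replicate 2 with 3.66.

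**Figure D4:**
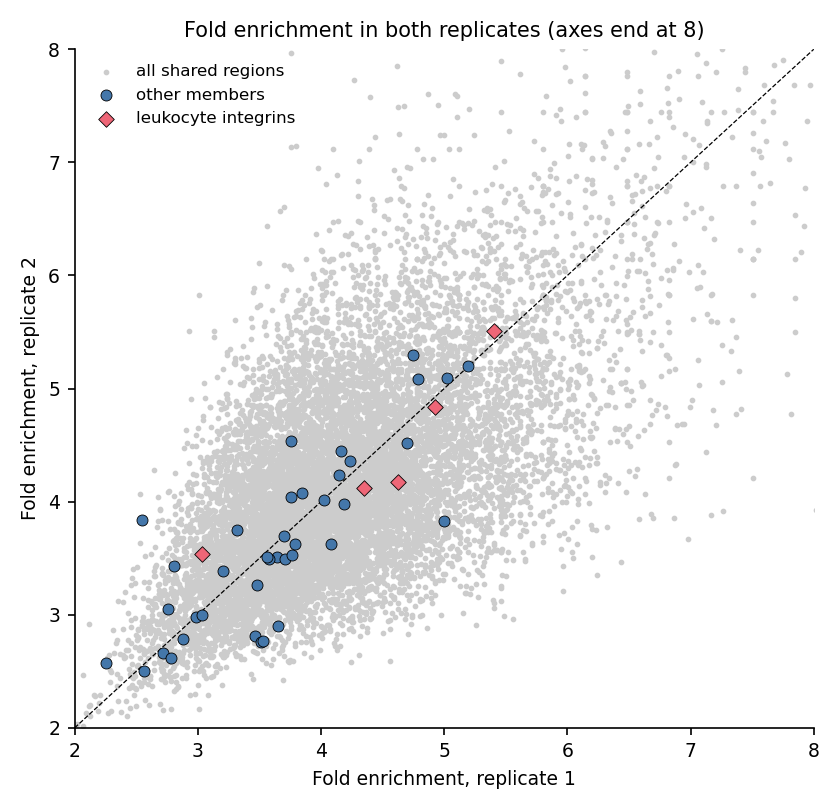
Fold enrichment deposited by the authors in replicate 1 (x axis) and replicate 2 (y axis) for all shared regions (grey) and for those at leukocyte integrins (red diamonds) and at the other integrin and laminin genes (blue circles); the dashed line marks equal values and both axes end at 8. The highest diamond is the ITGAL region at 5.41 and 5.50, and the circles reach from 2.25 to 5.20 in replicate 1.

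Laminin genes had a shared region in 6 of 11 cases (54.5%, background 26.8%, and 39.3% from genes of the same length classes), with 16 regions and 0.888 per 100 kb (exact 95% Poisson interval 0.508 to 1.44). LAMA3, the alpha chain of the epithelial laminin that anchors hemidesmosomes, had 5 regions on chromosome 18 in a gene of 266 kb. All 5 lay between 5.24 and 45.7 kb from the 5′ end, and the remainder of the gene had no shared region. The highest-ranked was chr18:23734865-23735528 with 3.75 and 4.54 (4.14 ± 0.554, SD, n = 2), and the other 4 had means from 3.12 to 3.96. The start site that the promoter table lists for LAMA3 lies between 138 and 178 kb from these summits, further inside the gene. LAMA5, the alpha chain of most adult basement membranes, had 3 regions on chromosome 20. The strongest of them, chr20:62370117-62370795, had its summit 3.11 kb outside the 5′ end with 3.76 and 3.53, and the others had means of 3.15 and 2.70. That with 2.70 lay within 1 kb of the long non-coding RNA gene LAMA5-AS1. LAMA1 had a peak of replicate 2 only, LAMA4 had peaks in both replicates that did not overlap, and LAMA2 had none.

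LAMB1 and LAMB4 are neighbours on chromosome 7 and had 2 shared regions each. LAMB1, the beta chain of the first laminin described, had chr7:108004366-108004770 with 4.79 and 5.09 (4.94 ± 0.213, SD, n = 2), 1.41 kb outside its 5′ end, and chr7:107966770-107967245 inside the gene with 4.03 and 4.01. At LAMB4 the replicates differed more, with 5.00 and 3.83 at chr7:108109280-108109685, while chr7:108095213-108095720 had 3.76 and 4.04. LAMB2 had no peak, and LAMB3, the beta chain found with LAMA3 in hemidesmosomal laminin, had a peak of replicate 2 only. LAMC1, the gamma chain of most laminins, had 3 regions on chromosome 1 at 16.8, 37.2 and 46.5 kb from its 5′ end. Their fold enrichments were 4.08 and 3.62, 4.18 and 3.98, and 3.71 and 3.49 in that order, each pair giving replicate 1 before replicate 2. LAMC3 had a single region, chr9:131011988-131012188, with 3.70 and 3.69.

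Of the 44 shared regions, 5 lay within 1 kb of an annotated gene end. A region lay within 1 kb of an end at 4 of the 37 genes (10.8%, background 7.53%), namely ITGA10, ITGAV, ITGAL and ITGB2, and at 0 of the 11 laminin genes. Strand was given by the promoter table for 26 of the 37 genes. Among those, only ITGAV had a region within 1 kb of the end where transcription starts, against a background of 5.63% of protein-coding genes in that table. None of the 33 member windows, the 250 bases before each listed start, overlapped a shared region, against 3.05% of all 34961 windows. ITGA3, ITGA7, ITGA9, ITGAD, ITGAL, ITGAX, ITGB2, ITGB3, ITGB4, LAMA1 and LAMC3 have no window. Of the genes with a window, ITGAV, LAMB1 and ITGAE had the summit of a shared region within 1.5 kb of a listed start, at 1196 bp inside the gene for ITGAV and at 1409 and 1332 bp before the start for LAMB1 and ITGAE. Their windows are shown because they are the start sites nearest to a region, with that of the leukocyte gene ITGAM for contrast. The sequences come from RefSeq on GRCh38.p14 and run 5′ to 3′ on the strand of the gene, and capitals mark each match to a searched motif.
ITGAV (chr2:186589806-186590055, plus strand): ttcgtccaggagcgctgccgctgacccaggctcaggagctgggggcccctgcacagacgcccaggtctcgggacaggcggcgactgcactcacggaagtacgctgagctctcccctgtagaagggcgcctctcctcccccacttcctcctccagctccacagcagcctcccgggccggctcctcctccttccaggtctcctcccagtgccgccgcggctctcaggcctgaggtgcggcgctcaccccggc
LAMB1 (chr7:108003162-108003411, minus strand): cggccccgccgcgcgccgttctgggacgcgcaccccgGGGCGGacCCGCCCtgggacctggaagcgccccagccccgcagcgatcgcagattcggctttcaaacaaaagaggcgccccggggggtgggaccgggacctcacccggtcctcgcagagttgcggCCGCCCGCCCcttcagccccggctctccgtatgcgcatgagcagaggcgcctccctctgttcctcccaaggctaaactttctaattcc
ITGAE (chr17:3801189-3801438, minus strand): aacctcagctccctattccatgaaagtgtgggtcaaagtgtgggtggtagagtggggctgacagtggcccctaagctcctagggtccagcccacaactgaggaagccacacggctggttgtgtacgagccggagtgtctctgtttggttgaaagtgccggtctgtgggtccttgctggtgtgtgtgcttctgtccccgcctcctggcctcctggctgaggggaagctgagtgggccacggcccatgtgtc
ITGAM (chr16:31259725-31259974, plus strand): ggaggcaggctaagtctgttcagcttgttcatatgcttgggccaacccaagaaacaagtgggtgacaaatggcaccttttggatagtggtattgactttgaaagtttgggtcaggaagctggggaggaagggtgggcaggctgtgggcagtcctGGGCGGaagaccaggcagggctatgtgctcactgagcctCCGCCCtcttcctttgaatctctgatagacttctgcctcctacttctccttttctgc

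The windows of ITGAV and LAMB1 were rich in CpG, with 18 and 28 CpG pairs and a GC content of 70.8% and 70.4%, while those of ITGAE and ITGAM had 6 and 2 CpG pairs and 60% and 53.2% GC. Over all member windows the median was 10 CpG pairs, against 11 over all windows. The motifs searched on both strands were TGANTCA, the AP-1 site, CCAAT, the NF-Y box, GGGCGG, the GC box of SP1, ACGTG and GCGTG, cores of the hypoxia response element, and TATAAA. LAMB1 had 4 matches to GGGCGG, of which 2 overlap each other, ITGAM had 2, and ITGAV and ITGAE matched none of the 6 motifs. GGGCGG occurred in 17 of the 33 member windows (51.5%, against 42.7% of all windows) and CCAAT in 5 (15.2%, against 32%). TGANTCA was found in 2 (6.06%, against 6.54%), at LAMA3 and LAMB3. A match describes letters only, and the shared regions themselves lay outside these windows.

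Within genes of known strand, most regions of the integrin and laminin genes lay nearer to the 5′ end than to the 3′ end. This held for 20 of 25 regions inside 12 genes (80%), against 54.1% over all protein-coding genes. Of the genes with several inside regions, LAMA3, LAMC1, ITGB1 and LAMB4 had all of them on that side. ITGB5 had regions nearer to the 3′ end at 88.5 and 110 kb of 139 kb, and LAMA5 had such a region at 47.2 kb of 58.2 kb. The single inside regions of ITGA10 and ITGAE also lay nearer to the 3′ end. Without LAMA3 the count was 15 of 20 (75%). This count was made after the positions had been seen, and several regions of 1 gene are not independent.

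By fold enrichment the regions of the integrin and laminin genes outside the leukocyte set ranked low, with a median mean percentile of 24.98. Below 50 lay 29 of these 39 regions, against 4514 of the 8133 shared regions assigned to protein-coding genes. The 5 regions of leukocyte integrins ranked higher than these 39, with a median of 62.2 and 1 below 50, and this difference was not tested. Over all 44 regions the median was 27.3, against 46.0 over all shared regions assigned to protein-coding genes, and 30 lay below 50. The summit pileup counts the fragments stacked at the summit and was worked out from the deposited fold enrichment and p. It had a median of 24 in replicate 1, against 21 at protein-coding genes as a whole. The background pileup implied by the same values had a median of 5.93, against 4.49. Given the fold enrichment and the summit pileup, this background is fixed by arithmetic, so it is not a separate measurement. The low fold enrichments came with summits that were not low and with a higher implied background. ITGA3 shows this most clearly: its 3 regions had summit pileups of 41, 37 and 34 in replicate 1 over backgrounds of 13.6, 13.8 and 14.5, where 95% of all shared regions were at 9.93 or lower. ITGAL was the reverse, with a pileup of 20 over a background of 2.88 at its stronger region. The strongest LAMA5 region had the highest summit, 49 fragments, over a background of 12.3. Only 3 regions, those of ITGA5, ITGAV and the stronger of ITGAL, reached a fold enrichment of 5 in both replicates.

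**Figure D5:**
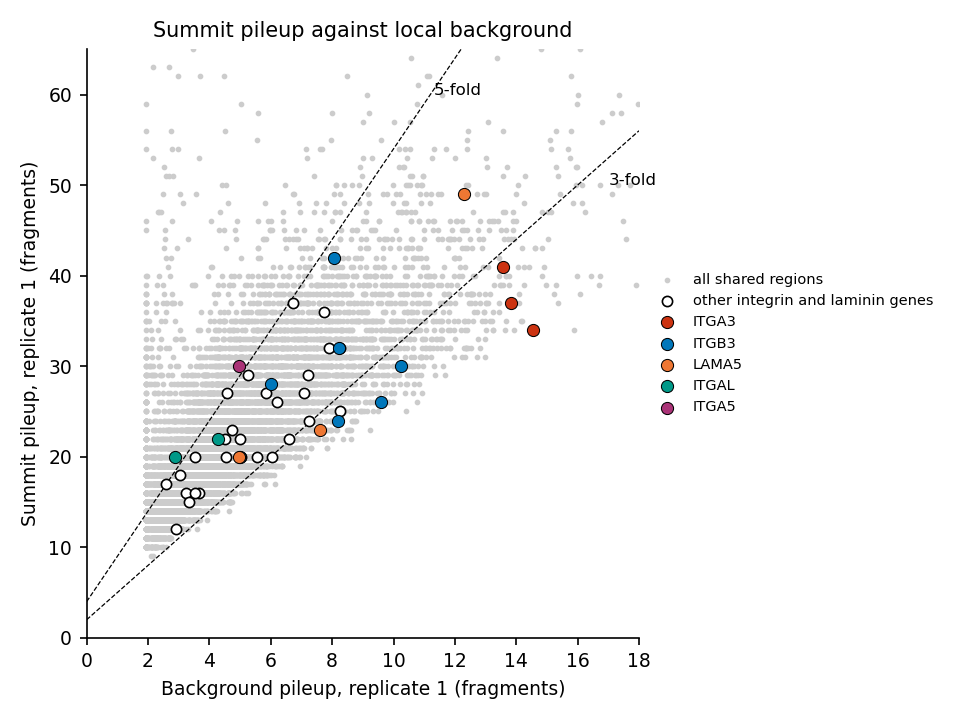
Summit pileup (y axis, fragments) against background pileup (x axis, fragments) in replicate 1 for all shared regions (grey) and the regions of integrin and laminin genes (circles, coloured for the 5 genes named in the legend); dashed lines mark fold enrichments of 3 and 5. ITGA3 lies below the 3-fold line at a background of 13.6 to 14.5, and ITGAL lies above the 5-fold line at 2.88.

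The replicates differed little at these genes: the median absolute log2 ratio of fold enrichment between them was 0.09 over the 44 regions, against 0.17 over all shared regions. The largest differences were at the ITGB3 region chr17:47265826-47266409 and at the LAMB4 region chr7:108109280-108109685. Outside the shared regions the 37 genes held 46 further peaks, 15 of replicate 1 and 31 of replicate 2. Among them the ITGAM peak had the highest fold enrichment, 6.10, followed by a LAMA4 peak of replicate 2 with 5.37. ITGB5 had 5 such peaks of replicate 2 and 1 of replicate 1.

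Genes that act with integrins were counted in the same way, from lists that were also chosen with earlier results of these data known. Of 29 genes listed as activators and adaptors, some of which connect the beta tail to actin, 16 had a region (55.2%, background 26.8%, and 34.1% from genes of the same length classes). TNS3, which encodes a tensin, had 12 regions, and ACTN1, the actin crosslinker alpha-actinin, reached 6.11 ± 0.408 (SD, n = 2). RSU1, a partner of the kinase-like adaptor complex at adhesions, had the only region of this list at a gene end, with 5.06 and 5.77, and ITGB1BP1, which binds the ITGB1 tail, had 5.73 and 5.21. Of 23 signalling genes 14 had a region (60.9%, and 35.7% from length classes), led by the exchange factor DOCK1 with 9.32 and 9.44, CRK with 6.29 and 7.18, PAK2 with 5.42 and 5.16 and NEDD9 with 5.68 and 4.76. Hemidesmosome and tetraspanin partners had 7 of 10 (70%, and 28.3% from length classes), led by DST with 6.86 and 6.06, followed by PLEC, SLC3A2 and CD81. Ligands and other basement membrane genes had 10 of 27 (37%, and 32.6% from length classes), with FRAS1, DAG1, FN1 and SPP1 ranked highest and FN1 at 4.29 and 4.47. FRAS1 led this list with 4.98 and 5.19, so that no ligand gene ranked as high as ITGA5 or ITGAL.

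For comparison, 18 of 44 collagen genes (40.9%, and 39.2% from genes of the same length classes) and 17 of 51 receptor tyrosine kinase genes (33.3%, and 35.8% from length classes) had a shared region. Both shares lie near those of genes of like length. Per 100 kb the collagen genes had 0.665 (exact 95% Poisson interval 0.490 to 0.881) and the receptor tyrosine kinase genes 0.523 (0.385 to 0.693), against 1.06 (0.773 to 1.43) for the integrin and laminin genes. Over all protein-coding genes this density fell with length, from 0.759 at 50 to 100 kb to 0.607 at 100 to 250 kb. Median length was 145 kb for the collagen genes, 93.7 kb for the kinase genes and 79.4 kb for the integrin and laminin genes. These densities are not adjusted for length. The intervals cover counting error only, regions cluster within genes, and no test of these differences was run. ITGB3 alone gave 7 of the 44 regions.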

How the data were processed

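DEK ChIP-seq of 2 samples of 786-O cells was analysed from the authors' peak lists, deposited separately for each replicate. Per the submitters' processing notes the build was GRCh38 (hg38), and the tools, listed with no roles, were MACS2 2.2.7.1, Bowtie2 2.2.5, deepTools 3.5.1, cutadapt 1.18, ChIPseeker 1.32.1 and DiffBind 3.6.5. A control library in the calling is neither named nor denied. The deposited columns hold a score, a fold enrichment (a linear ratio at the summit), the −log10 p and −log10 q, and the summit offset, all made by the authors. The lowest −log10 q in the lists was 1.31 and 1.30, close to a q of 0.05.

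Peaks on chromosomes 1 to 22 and X, 19015 and 24457 in number, were joined into shared regions, each carrying, per replicate, the value of its strongest peak. A region's percentile is its rank in fold enrichment among shared regions, averaged over the replicates. The summit pileup was taken as the whole number that meets the deposited fold enrichment and Poisson p within a relative tolerance of 5e-05, which was found for all but 1 peak of each list. With a median pileup of 19 in both lists, counting error in any single fold enrichment is wide. Gene positions came from RefSeq (GRCh38.p14) with 1 row per gene, and exons and introns were not separated. Overlaps were computed with Python 3.11.15, pandas 2.3.3 and SciPy 1.17.1, and the code was tested on simulated data. The members and lists were chosen with earlier results of these data known. Values per replicate were to be given for the 10 members with the most regions, the 10 with the highest percentile, all with a region at an end, the leukocyte integrins, and the 4 highest of each partner list. Alternatives were the flank, the matching of replicates, thresholds on q and fold, summit position and assignment to the nearest gene.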

Additional observations from a re-analysis of the deposited data

How the results depend on the processing

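The count of 17 genes with a shared region remained within 1.5 times under flanks of 0 or 10 kb (17 and 22) and 50% reciprocal overlap (14). The same held for summits in place of overlaps (17) and assignment to the nearest gene (16). The background of 26.8% moved too, to 32.9% with the flank of 10 kb and to 22% with 50% reciprocal overlap. Without a flank, by summits and by nearest gene no share over all genes is given, so those counts have no background. The count of 17 fell to 11 with −log10 q of at least 5 (background 12.3%) and to 3 with a fold enrichment of at least 5 (background 2.78%). With the peaks of replicate 1 alone it was 21 (background 35.9%), and with those of replicate 2 alone 26 (background 41.5%). The leukocyte count of 2 rose to 4 with a flank of 10 kb (background 32.9%) and fell to 1 at a fold enrichment of at least 5 (background 2.78%). It ranged from 2 to 4 with a single replicate (backgrounds 35.9% and 41.5%). The count of 15 other genes fell to 9 with −log10 q of at least 5 (background 12.3%) and to 2 with a fold enrichment of at least 5 (background 2.78%). Counting ITGAE, ITGA4 and ITGA2B as leukocyte genes gave 3 of 9 and 14 of 28 (background 26.8%).

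The 4 genes with a region within 1 kb of an end (background 7.53%) became 2 with 50% reciprocal overlap, 2 by summits, 1 with a fold enrichment of at least 5, 1 at the start of transcription (26 genes with strand, background 5.63%) and 10 with windows of 3 kb. For the other end settings no share over all genes is given, so those counts have no background. Regions per 100 kb fell from 1.06 to 0.750 with 50% reciprocal overlap, 0.435 with −log10 q of at least 5 and 0.0726 with a fold enrichment of at least 5, and were 1.45 to 1.81 with a single replicate. No cause of these changes beyond the way each setting is built was tested. The highest fold enrichment of ITGAE rose from 3.53 to 4.78 without replicate 1, where a different peak became its highest. No paired analysis was possible because both samples belong to 1 group. Of the 20 genes without a shared region, 10 had no peak past the authors' threshold in either replicate and 10 had peaks that were not shared, and at this depth neither shows that DEK was absent.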
